A study of Mus musculus with 12 samples.

Results

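Casp1, Casp4, Casp8, Gsdmd, Pycard, Nlrp3, Ripk1, Ripk3, Mlkl and Fas, genes of pyroptosis, necroptosis and death receptor signalling, were followed in the retina of mice with inherited photoreceptor degeneration. The 10 genes were taken from the gene table by their gene names, each of which occurred once among 32867 genes. The study compared 3 models with a C3H control in order to learn which death and disease pathways they share, and sampled each model at the age at which its photoreceptor death peaked. Total retinal RNA was depleted of ribosomal RNA and sequenced in 12 libraries, 3 per group.

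The C3H group carried wild-type alleles of Pde6b and Prph2 and held 1 library each from postnatal days 13, 23 and 29. Pde6b rd1 retinas, from mice without functional rod phosphodiesterase 6 beta, were taken at day 13, and Pde6b rd10 retinas, from mice with a point mutation in the same enzyme, at day 23. Prph rd2 retinas, from mice with a mutation in Prph2, which is needed to form outer segments, were taken at day 29. The methods place Pde6b rd1 and Prph rd2 on C3H and Pde6b rd10 on C57Bl6/J, whereas the labels give C57BL6/J for Prph rd2. Eno1b, a gene with 6533 to 8049 counts in C3H, had 7115 to 9481 counts in Prph rd2 and 3 to 13 in Pde6b rd10. Strain and mutation therefore cannot be told apart for Pde6b rd10, and in every model age is matched by only 1 of the 3 C3H libraries. Sex is not labelled. Xist, the RNA of the inactive X chromosome, had 8 to 10 counts in C3H and 13428 to 83716 in the models. Ddx3y, on the Y chromosome, had 1481 to 2005 counts in C3H and 0 in Pde6b rd1. In Pde6b rd10 it had 1056 to 1696 counts and in Prph rd2 757 to 907, so each library of these groups held both RNAs. The sex of the mice thus also differed between the control and the models, and between Pde6b rd1 and Pde6b rd10. The mutated genes were lower in their models, with 4937 to 6253 Pde6b counts in Pde6b rd1 and 16340 to 21014 in Pde6b rd10 against 24335 to 29129 in C3H, and 30656 to 34634 Prph2 counts in Prph rd2 against 52768 to 65756. Lower Prph2 was not particular to Prph rd2, since Pde6b rd1 had 29041 to 35541 counts and Pde6b rd10 38587 to 51724. Library totals ran from 17049495 to 24755890 counts, and on library sizes scaled by edgeR's TMM method 3 counts in a library corresponded to 0.121 to 0.169 counts per 1000000 (CPM).

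Pyroptosis is a lytic form of death in which a sensor such as NLRP3 and the adaptor ASC, encoded by Pycard, assemble an inflammasome that activates caspase 1. Caspase 1 and caspase 4 (also called caspase 11 in the mouse) cut gasdermin D, whose released part forms pores in the plasma membrane. Necroptosis instead runs through the kinases RIPK1 and RIPK3 to the pore-forming protein MLKL, and is held in check by caspase 8, the protease that death receptors such as FAS recruit to start apoptosis. In the retina many inflammasome genes are mainly known from microglia and infiltrating macrophages, and Pde6b degeneration has long been studied as a form of photoreceptor death.

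In Pde6b rd10, 9 of the 10 genes lay above C3H in every library, and Ripk3 did not, beside 30.4% of all genes tested there. The rises ran from 1.68-fold for Ripk1 to 44.9-fold for Fas as ratios of CPM over summed counts. In Pde6b rd1 only Gsdmd lay above C3H without overlap, as did 23.2% of all genes tested there. In Prph rd2 each of the 10 genes overlapped C3H, whereas 14.6% of all genes tested lay above it and 14.1% below in every library. Levels were low: outside Pde6b rd10 no gene but Ripk1 exceeded 43 counts in any library. The plot of CPM by library shows this pattern gene by gene.

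**Figure D1:**
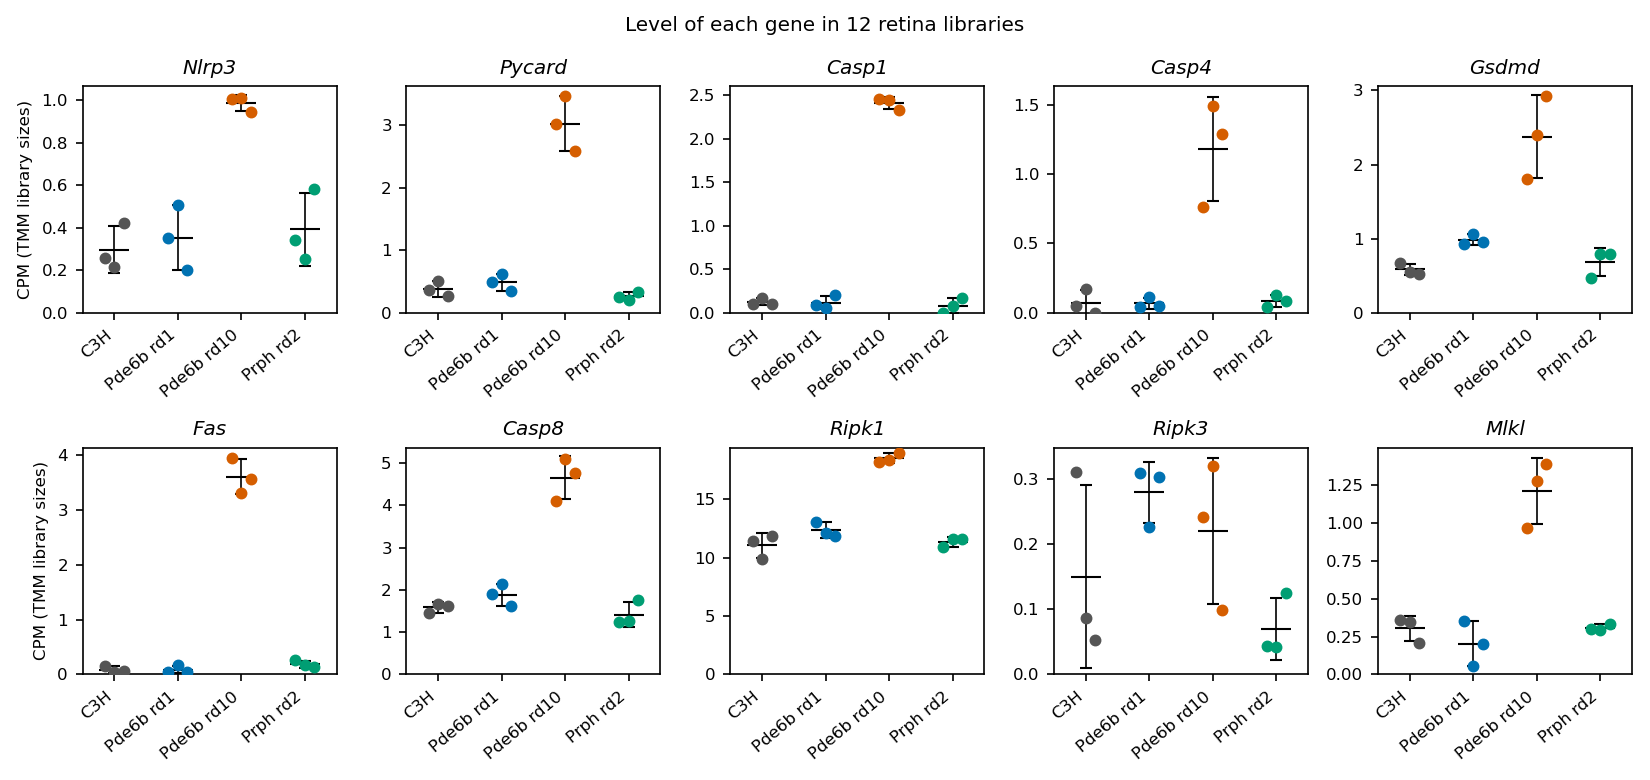
Counts per 1000000 (CPM, on TMM-scaled library sizes) of the 10 genes in each of 12 retina libraries; points are libraries, horizontal marks the group mean and error bars the SD of 3 libraries. Fas stood at 3.30 to 3.94 CPM in Pde6b rd10 and at 0.0429 to 0.155 CPM in C3H, whereas Ripk3 overlapped between Pde6b rd10 and C3H.

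A gene was called higher or lower at an unadjusted p under 0.05 in edgeR's quasi-likelihood test together with a change of at least 1.5-fold, the thresholds of the study's methods. Of all genes tested in Pde6b rd10 against C3H, 15.9% were called higher and 8.08% lower. All 9 of the genes that passed the filter on low counts were called higher there, and Ripk3 did not pass. The count of 9, and the p-values given below for 6 of the 9, have to be read with the filter in mind. These 6 (Casp1, Casp4, Pycard, Nlrp3, Mlkl and Fas) had too few reads in the other groups and passed only through their Pde6b rd10 reads. Libraries without overlap were also common across the table, with 30.4% of all genes tested lying above C3H in every Pde6b rd10 library.

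The promoters of the genes that rose most are printed where each gene is described, to allow their sequences to be compared. That of Ripk3, which overlapped C3H, is printed as well. Each runs from 250 bases before to 50 bases after the RefSeq start site on GRCm38.p6, 5′ to 3′ on the strand of the gene. RefSeq sequences were at hand for 9 of the 10 genes, the exception being Gsdmd. Capitals mark matches, on either strand, to 6 motifs of immune and stress-responsive factors that were chosen with the expression results known. The motifs were the ISRE core GAAANNGAA, held by 8.55% of 32817 mouse promoters of the same length, GAS TTCNNNGAA by 8.29%, AP-1 TGANTCA by 7.81%, the PU.1 core AGGAAGT by 9.35%, C/EBP TTGCNNAA by 10.8% and NF-kB by 8.46%. Positions count the start site as 0. Gene positions given with the genes are those of the protein-coding gene in the GRCm38 annotation. Nlrp3 lies at chr11:59541568-59566956, Fas at chr19:34290666-34327772 and Casp8 at chr1:58795374-58847503, each on the plus strand, and Ripk3 at chr14:55784995-55788865 and Mlkl at chr8:111311797-111338177, both on the minus strand.

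Nlrp3, which encodes the sensor of the best-known inflammasome, was among the least abundant of the genes. It had 25, 19 and 19 counts in Pde6b rd10, against 5, 5 and 8 in C3H and 8, 9 and 4 in Pde6b rd1, while Prph rd2 had 8, 6 and 14. Pde6b rd10 was the group that stood above C3H without overlap. The log2 fold change over C3H was 1.73 (SE 0.37, edgeR adjusted p = 0.000445). Nlrp3 has 2 RefSeq start sites, and of their promoters 1 held an NF-kB match, at position -186.

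Pycard, the gene of the inflammasome adaptor ASC, had 75, 65 and 52 counts in Pde6b rd10. Its counts were 7, 12 and 5 in C3H and 11, 11 and 7 in Pde6b rd1, while Prph rd2 had 6, 5 and 8. The lowest Pde6b rd10 library was thus more than 4 times the highest of the other 9. In CPM the Pde6b rd10 mean was 3.02 ± 0.44 (SD, n = 3) against 0.380 ± 0.127 in C3H, and the log2 fold change was 2.94 (SE 0.28, edgeR adjusted p = 1.73e-08). Pycard lies at chr7:127989708-127993867 on the minus strand of GRCm38 and overlaps Gm45205 on the opposite strand, which had 43 to 68 counts in Pde6b rd10 and 22 to 43 in C3H. Whether counting used strand is not stated in the sources used here, so reads of the overlapping pair may not be fully separated. The promoter (chr7:127993818-127994117, minus strand) held a PU.1 core at position -44 and a C/EBP match at -142.
Pycard: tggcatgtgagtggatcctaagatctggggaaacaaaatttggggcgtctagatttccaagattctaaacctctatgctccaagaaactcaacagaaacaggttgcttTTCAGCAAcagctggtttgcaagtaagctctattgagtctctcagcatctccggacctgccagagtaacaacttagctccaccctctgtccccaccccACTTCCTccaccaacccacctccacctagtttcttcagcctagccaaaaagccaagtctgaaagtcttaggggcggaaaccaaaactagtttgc

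Casp1 encodes the inflammasome protease that matures interleukin 1 beta and interleukin 18 and cuts gasdermin D. It was barely detected outside Pde6b rd10, with 2, 4 and 2 counts in C3H and 2, 1 and 4 in Pde6b rd1, while Prph rd2 had 0, 2 and 4. Pde6b rd10 had 61, 46 and 47 counts. Because the C3H counts were so few, the ratio of summed CPM of 18.6 has an exact 95% counting interval of 9.21 to 43.9, which covers counting error only. The fitted log2 fold change was 4.16 (SE 0.35, edgeR adjusted p = 2.56e-09). Spread between the Pde6b rd10 libraries was small, at 2.41 ± 0.07 CPM (SD, n = 3). The promoter (chr9:5298267-5298566, plus strand) held none of the 6 motifs.
Casp1: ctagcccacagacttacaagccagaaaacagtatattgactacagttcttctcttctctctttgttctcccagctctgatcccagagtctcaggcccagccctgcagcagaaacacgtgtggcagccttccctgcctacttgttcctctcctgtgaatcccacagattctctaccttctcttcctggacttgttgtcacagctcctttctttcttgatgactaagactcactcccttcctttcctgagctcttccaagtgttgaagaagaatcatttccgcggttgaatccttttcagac

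Casp4, the sensor and protease of cytosolic lipopolysaccharide, starts 1562 bases after the end of Casp1 on the same strand of chromosome 9 (Casp1 chr9:5298517-5307265, Casp4 chr9:5308828-5336783). It had 19, 28 and 26 counts in Pde6b rd10. Counts elsewhere were 1, 4 and 0 in C3H and 1, 2 and 1 in Pde6b rd1, while Prph rd2 had 1, 3 and 2. Groups did not overlap between Pde6b rd10 and any other. The ratio to C3H was 14.1 (exact 95% counting interval 5.78 to 44.8) and the fitted log2 fold change 3.74 (SE 0.55, edgeR adjusted p = 8.21e-06). C3H replicate 2 alone held 4 of the 5 C3H counts, and without it the log2 fold change was 5.17. Casp12, a related inflammatory caspase that lies a further 8646 bases along the same strand (chr9:5345430-5373032), went the same way, with 33 to 57 counts in Pde6b rd10 against 1 to 4 in C3H and a log2 fold change of 3.77 (SE 0.38, edgeR adjusted p = 3.69e-08). The Casp4 promoter (chr9:5308599-5308898, plus strand) held 3 NF-kB matches, an overlapping pair at positions -93 and -92 and another at -39.
Casp4: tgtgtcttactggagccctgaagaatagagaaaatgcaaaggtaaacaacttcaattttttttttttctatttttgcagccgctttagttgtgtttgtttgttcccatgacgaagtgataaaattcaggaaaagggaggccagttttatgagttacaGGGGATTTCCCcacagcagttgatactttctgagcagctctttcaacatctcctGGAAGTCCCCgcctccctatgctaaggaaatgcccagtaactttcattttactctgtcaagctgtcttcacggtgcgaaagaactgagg

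Gsdmd encodes gasdermin D, the pore former of pyroptosis, at chr15:75862327-75867408 on the plus strand. Its counts were 13, 13 and 10 in C3H and 45, 45 and 59 in Pde6b rd10. Pde6b rd1 had 21, 19 and 19 counts, and Prph rd2 11, 19 and 19. Thus Gsdmd was the gene for which Pde6b rd1 also stood above every C3H library, and it lay between C3H and Pde6b rd10. The log2 fold change of Pde6b rd10 over C3H was 2.00 (SE 0.28, edgeR adjusted p = 3.95e-06).

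Fas encodes the receptor of FAS ligand, and it changed most. It had 3, 1 and 1 counts in C3H and 1, 3 and 1 in Pde6b rd1, while Prph rd2 had 6, 4 and 3. Pde6b rd10 had 98, 62 and 72 counts. The ratio to C3H was 44.9, with an exact 95% counting interval of 19.0 to 139.5 set by the 5 reads in C3H. The fitted log2 fold change was 5.38 (SE 0.36, edgeR adjusted p = 5.97e-11), and it was 6.09 without C3H replicate 1, which held 3 of the 5 reads. Fasl, the ligand, had 2 to 3 counts in Pde6b rd10 against 1 to 5 in C3H, at the limit of what these libraries could detect. The Fas promoter (chr19:34290409-34290708, plus strand) held an AP-1 match at position -211 and a GAS match at -93.
Fas: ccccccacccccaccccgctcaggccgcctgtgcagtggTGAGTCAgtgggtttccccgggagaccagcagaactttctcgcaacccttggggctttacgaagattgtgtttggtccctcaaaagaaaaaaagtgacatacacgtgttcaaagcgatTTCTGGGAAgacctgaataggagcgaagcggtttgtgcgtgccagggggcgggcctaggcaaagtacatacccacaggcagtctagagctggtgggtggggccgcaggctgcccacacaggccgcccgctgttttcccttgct

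Casp8, which encodes the apical caspase of death receptors and the protease that blocks necroptosis, was higher in Pde6b rd10 with 102, 96 and 96 counts. C3H had 28, 39 and 31 counts, Pde6b rd1 43, 38 and 32, and Prph rd2 29, 30 and 42. In CPM the means were 4.66 ± 0.51 in Pde6b rd10 and 1.58 ± 0.12 in C3H (SD, n = 3). That difference was a log2 fold change of 1.54 (SE 0.18, edgeR adjusted p = 2.63e-07). Casp8 overlaps Gm37760 on the same strand, which had 6 to 22 counts in Pde6b rd10 and 1 to 6 in C3H. The promoter searched (chr1:58802252-58802551, plus strand) held none of the 6 motifs. It lies inside the annotated gene, which begins at position 58795374, and the sequence at that beginning was not searched.

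Ripk1, the kinase shared by survival, apoptotic and necroptotic signalling, was the most abundant of the genes and the least changed of those that rose. It had 221, 230 and 226 counts in C3H and 451, 345 and 382 in Pde6b rd10. Pde6b rd1 had 297, 215 and 234 counts and Prph rd2 254, 277 and 278. In CPM, Pde6b rd10 stood at 18.5 ± 0.4 and C3H at 11.1 ± 1.1 (SD, n = 3), a log2 fold change of 0.75 (SE 0.09, edgeR adjusted p = 3.58e-07). Ripk1 (chr13:34002363-34037147, plus strand) overlaps Serpinb6a on the opposite strand, which had 333 to 399 counts in Pde6b rd10 and 161 to 233 in C3H, and the part of such reads in the Ripk1 value was not tested. Of its 2 promoters, 1 held an ISRE core at position -5 and GAS matches at -108 and -11.

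Ripk3, the kinase that phosphorylates MLKL in necroptosis, was near the limit of detection in all 4 groups. C3H had 6, 2 and 1 counts, Pde6b rd1 7, 4 and 6, Pde6b rd10 6, 6 and 2, and Prph rd2 1, 1 and 3. No group stood apart from C3H. The ratio of Pde6b rd10 to C3H was 1.504 with an exact 95% counting interval of 0.607 to 3.94. C3H replicate 1, the day 13 library and so not matched in age to Pde6b rd10, held 6 of the 9 C3H reads. The Pde6b rd10 libraries, at 0.0993 to 0.319 CPM, lay above the day 23 (0.0858) and day 29 (0.0525) C3H libraries, on few reads. Without replicate 1 the ratio was 3.10 with limits of 0.865 and 16.8. That range leaves out the ratios of Casp1 and Fas and includes those of the other 7 genes that rose. Without the filter on low counts edgeR gave a log2 fold change of 0.55, which was not called. The Ripk3 promoter (chr14:55788808-55789107, minus strand) held an ISRE core at position 14.
Ripk3: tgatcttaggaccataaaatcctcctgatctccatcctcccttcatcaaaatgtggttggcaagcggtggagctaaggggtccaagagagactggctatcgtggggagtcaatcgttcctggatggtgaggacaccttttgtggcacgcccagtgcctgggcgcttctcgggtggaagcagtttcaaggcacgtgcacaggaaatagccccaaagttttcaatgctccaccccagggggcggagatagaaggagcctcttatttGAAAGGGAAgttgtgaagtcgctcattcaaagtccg

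Mlkl encodes the pore former of necroptosis. Its counts were 24, 24 and 28 in Pde6b rd10 and 7, 8 and 4 in C3H. Pde6b rd1 had 8, 1 and 4 counts and Prph rd2 7, 7 and 8. Pde6b rd10 was again the group that stood apart, with a log2 fold change of 1.94 (SE 0.35, edgeR adjusted p = 0.000100). No motif match lay in its promoter.

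**Figure D2:**
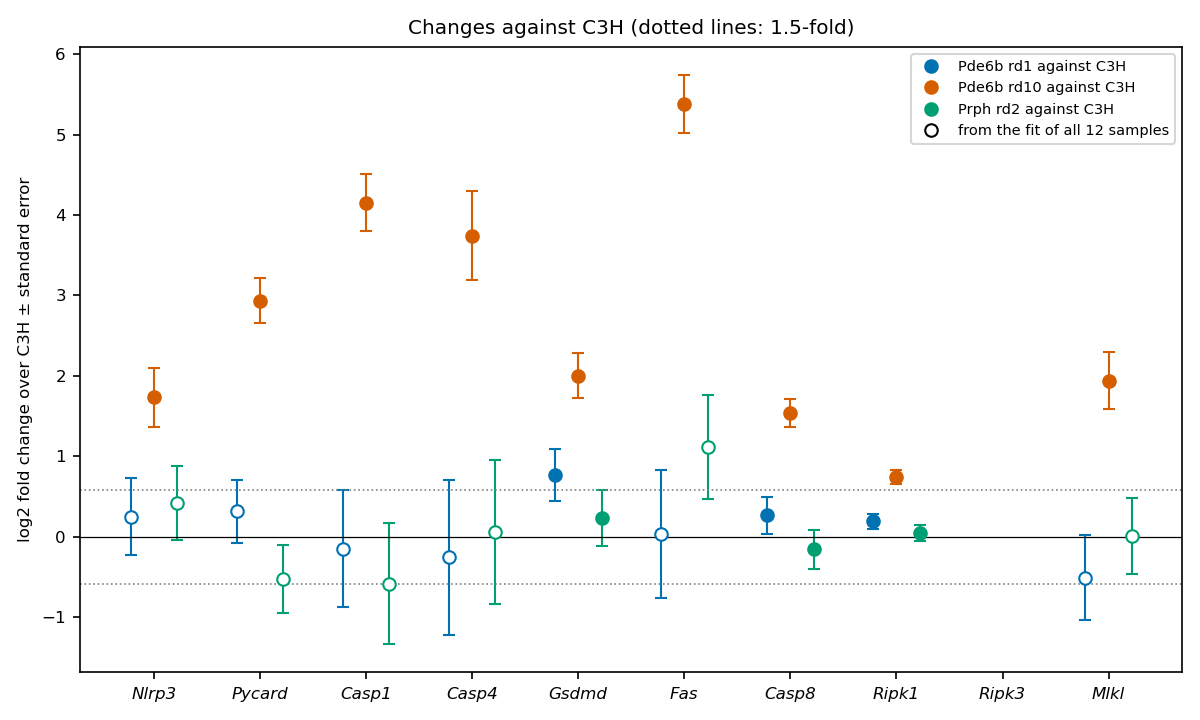
Log2 fold change over C3H of each gene in the 3 models, with standard errors from edgeR; filled symbols come from the comparison of 6 libraries and open symbols from the fit of all 12. In Pde6b rd10 the values run from 0.75 for Ripk1 to 5.38 for Fas, while they run from -0.51 to 0.77 in Pde6b rd1 and from -0.59 to 1.11 in Prph rd2, and Ripk3 passed the filter in no fit.

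Levels can be compared between genes only per length, and on the deposited FPKM scale the order of the genes differed between C3H and Pde6b rd10. In C3H Ripk1 stood first at 1.28 ± 0.12 FPKM (SD, n = 3), then Casp8 at 0.530 ± 0.038 and Gsdmd at 0.238 ± 0.033, each separated from the next. The other 7, from Mlkl at 0.128 ± 0.036 FPKM down to Casp4 at 0.0195 ± 0.0230, each overlapped their neighbour in the order. In Pde6b rd10 Fas, ranked 9 of 10 in C3H, stood second at 2.01 ± 0.18 FPKM and overlapped Ripk1 at 2.23 ± 0.05. Casp8 and Casp1 followed at 1.62 FPKM each (SD 0.18 and 0.04) and overlapped, as did Gsdmd at 1.01 ± 0.24 and Pycard at 0.798 ± 0.115. Mlkl at 0.529 ± 0.097 FPKM stood clear of both neighbours, Casp4 at 0.320 ± 0.102 overlapped Nlrp3 at 0.244 ± 0.009, and Ripk3 was last at 0.0964 ± 0.0488. Pde6b rd1 and Prph rd2 kept Ripk1, Casp8 and Gsdmd as the 3 highest, in that order and without overlap, and Casp4 as the lowest.

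**Figure D3:**
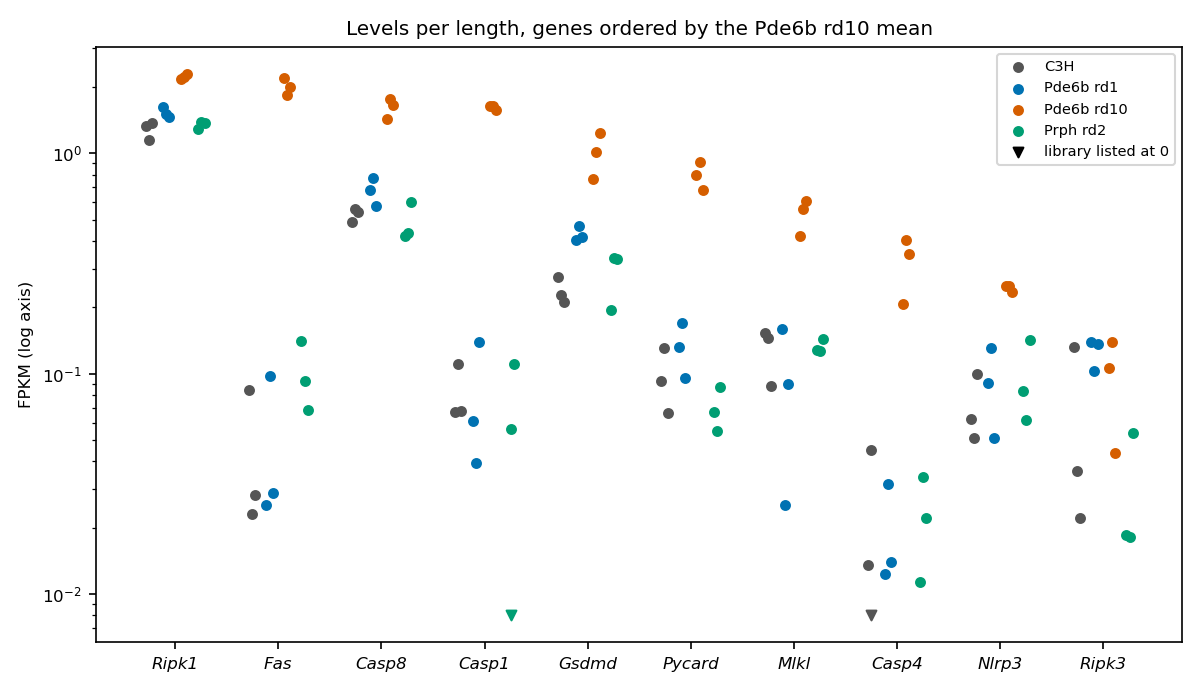
FPKM of the 10 genes in each library on a log axis, with genes ordered by their Pde6b rd10 mean and triangles for libraries listed at 0. Fas and Casp1 in Pde6b rd10 reach the levels of Ripk1 and Casp8, whereas in the other groups they lie below them.

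Pde6b rd1 and Pde6b rd10 are mutations of the same gene, and the difference between them was tested directly in the fit of all 12 libraries. Of the genes tested, 17.6% were called higher in Pde6b rd10 in this test and 11.2% lower. Casp1, Casp4, Pycard, Nlrp3, Mlkl and Fas again passed the filter on low counts only through their Pde6b rd10 reads. Their p-values here therefore belong to genes that were tested because Pde6b rd10 was high. For 9 of the 10 genes every Pde6b rd10 library stood above every Pde6b rd1 library, as it did for 33.1% of all genes tested, and Ripk3 overlapped. Fas differed by 5.35 on the log2 scale (SE 0.40, edgeR adjusted p = 5.04e-10), Casp1 by 4.31 (SE 0.44, edgeR adjusted p = 5.73e-08) and Casp4 by 4.02 (SE 0.59, edgeR adjusted p = 7.36e-06). Pycard differed by 2.63 (SE 0.29, edgeR adjusted p = 1.36e-07) and Mlkl by 2.46 (SE 0.42, edgeR adjusted p = 4.30e-05). Smaller differences were found for Nlrp3 at 1.48 (SE 0.39, edgeR adjusted p = 0.00313), Casp8 at 1.30 (SE 0.18, edgeR adjusted p = 3.70e-06) and Gsdmd at 1.26 (SE 0.26, edgeR adjusted p = 0.000329). Ripk1 had a small p but a log2 difference of 0.58 (SE 0.08, edgeR adjusted p = 4.99e-06), just under 1.5-fold, so it was not called. It was called, at 0.59 to 0.63, without Pde6b rd1 replicate 1, Pde6b rd10 replicate 1 or Pde6b rd10 replicate 2. Among the larger differences, that of Fas was 6.10 without Pde6b rd1 replicate 2, that of Casp1 4.92 without Pde6b rd1 replicate 3 and that of Mlkl 3.12 without Pde6b rd1 replicate 1, each still called. Age and strain differ along with the mutation here, as does sex by the Ddx3y counts (0 in Pde6b rd1 and 1056 to 1696 in Pde6b rd10). None of these can be told apart from the mutation.

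In Pde6b rd1 against C3H, 8.98% of the genes tested were called higher and 6.03% lower. Only 3 of the 10 genes had enough reads for this comparison, and Gsdmd was called higher. Its log2 fold change was 0.77 (SE 0.33), with an unadjusted p of 0.0288 and an edgeR adjusted p of 0.0638. The call was lost without C3H replicate 2, C3H replicate 3 or Pde6b rd1 replicate 2, and against the day 13 C3H library alone the change was 0.55. Casp8 changed by 0.27 (SE 0.23, edgeR adjusted p = 0.376) and Ripk1 by 0.19 (SE 0.09, edgeR adjusted p = 0.109), and neither was called. In the fit of all 12 libraries Pycard was at 0.31 (SE 0.39), Nlrp3 at 0.25 (SE 0.48), Fas at 0.03 (SE 0.79), Casp1 at -0.15 (SE 0.73), Casp4 at -0.26 (SE 0.97) and Mlkl at -0.51 (SE 0.53), none of them called. For Pycard the exact 95% counting interval of the ratio to C3H was 0.695 to 2.22 and for Casp1, with 7 against 8 reads, 0.277 to 2.83. Changes of the size found in Pde6b rd10 lay outside both intervals. They cover counting error only and not the spread between libraries, so they do not by themselves exclude such changes. No ratio is given for Fas, which was at or under 3 counts in each library of both groups. Ripk3 had 17 reads in all against 9 in C3H, a ratio of 1.93 (exact 95% counting interval 0.815 to 4.92).

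Prph rd2 against C3H was the comparison with the fewest calls, 2.68% of genes higher and 1.89% lower. None of the 3 genes tested was called by edgeR, and none of them had an unadjusted p under 0.05; DESeq2, which tested 10, also called 0. Casp8 changed by -0.16 (SE 0.24), Gsdmd by 0.23 (SE 0.35) and Ripk1 by 0.05 (SE 0.10) on the log2 scale. The interval for Ripk1 was narrow, with a ratio of 1.04 and exact 95% counting limits of 0.934 and 1.15. In the fit of all 12 libraries the largest value was that of Fas at 1.11 (SE 0.65, edgeR adjusted p = 0.308). Fas had 13 reads over the 3 Prph rd2 libraries against 5 in C3H, a ratio of 2.25 with limits of 0.754 and 8.07, and the groups overlapped. Nlrp3 was at 0.42 (SE 0.46), Casp4 at 0.06 (SE 0.90), Mlkl at 0.01 (SE 0.48), Pycard at -0.53 (SE 0.42) and Casp1 at -0.59 (SE 0.75), none of them called. Ripk3 had 5 reads against 9, a ratio of 0.481 (exact 95% counting interval 0.127 to 1.60).

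Other genes of the same pathways were described from 9 lists of 103 genes that leave out the 10 themselves, of which 97 were in the table. In Pde6b rd10 against C3H, 80 of them were tested, 38 were called higher and 2 lower, 47.5% and 2.5% beside 15.9% and 8.08% of all genes. These shares carry the effect of the filter, since 9 of the 80 (Cybb, Casp12, Naip5, Naip6, Nlrp1b, Il1a, Il1b, Il1rn and Zbp1) passed it in this comparison alone of the 3 with C3H, and all 9 were called higher. Of the 68 list genes tested in all 3 comparisons, 26 were higher in Pde6b rd10 and 2 lower. In Pde6b rd1 68 were tested, with 2 called higher and 8 lower, 2.94% and 11.8% beside 8.98% and 6.03% of all genes. In Prph rd2 71 were tested, with 1 called higher and 1 lower, 1.41% each beside 2.68% and 1.89%. The plot of the lists shows these changes, most of the calls being in Pde6b rd10.

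**Figure D4:**
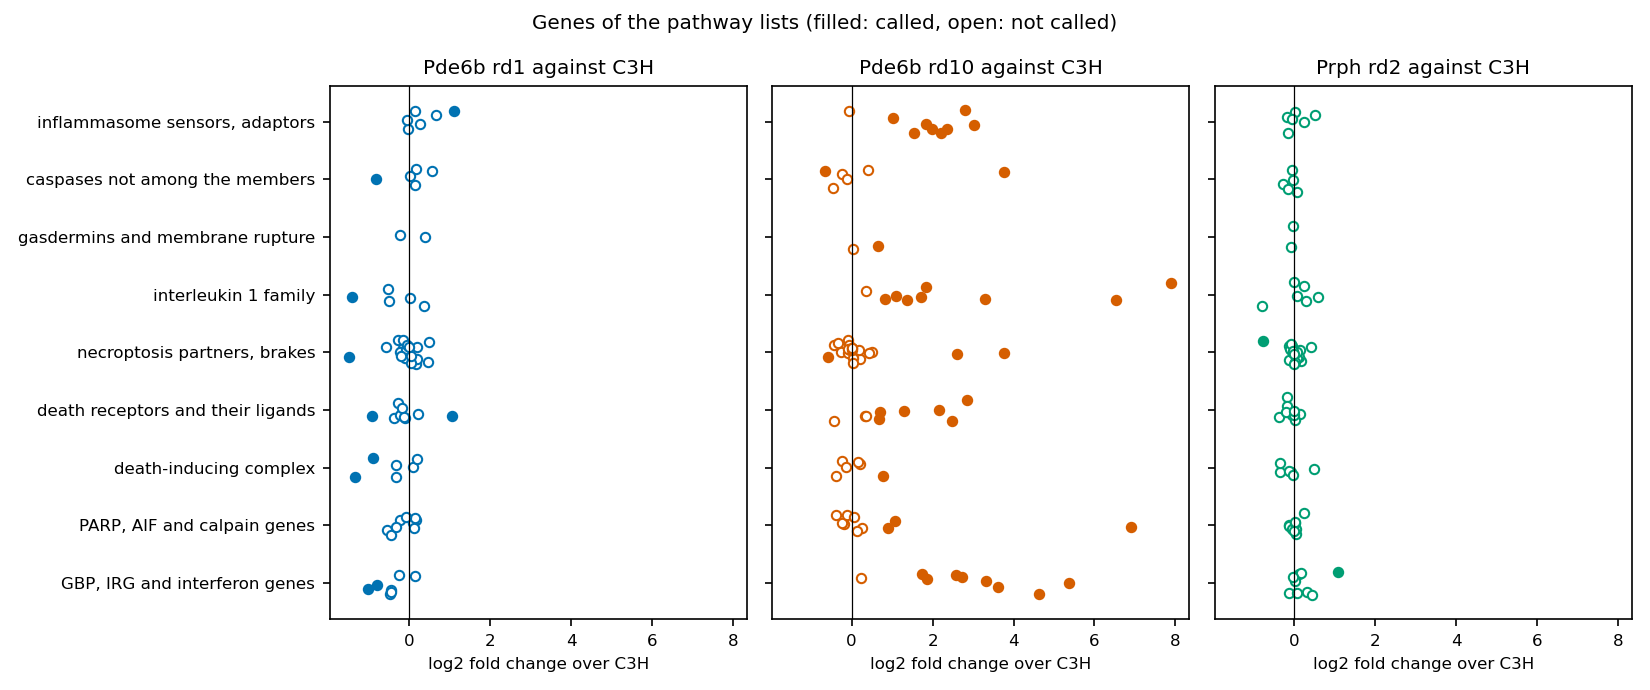
Log2 fold change over C3H of each tested gene of the 9 pathway lists in the 3 models; filled points were called and open points were not, and vertical jitter only separates points. In Pde6b rd10 called genes reach 7.88 (Il1rn), whereas the largest called rise was 1.10 in both Pde6b rd1 (Txnip) and Prph rd2 (Gbp5).

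Among the inflammasome sensors and adaptors, 8 of 9 tested were higher in Pde6b rd10 and none lower. Naip5, Naip6 and Nlrp1b were tested in that model alone, and of the 6 tested in each model 5 were higher. The calls with the smallest p were those of Txnip, a redox-regulated partner of NLRP3, at 1.54 (SE 0.07, edgeR adjusted p = 1.07e-13), Naip2, a receptor of bacterial secretion proteins, at 3.03 (SE 0.25, edgeR adjusted p = 1.58e-09) and P2rx7, the ATP-gated channel that triggers NLRP3, at 1.84 (SE 0.20, edgeR adjusted p = 8.58e-08). Naip2, Naip5 and Naip6 are close paralogs whose reads could be split between them. Nek7, a kinase that NLRP3 needs, was at -0.07 (SE 0.05, edgeR adjusted p = 0.279) and was not called. Txnip was also called higher in Pde6b rd1, at 1.10 (SE 0.07, edgeR adjusted p = 1.28e-11), and was at -0.18 (SE 0.10) in Prph rd2.

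Of the interleukin 1 family and its receptors, 8 of 9 tested were higher in Pde6b rd10, but Il1a, Il1b and Il1rn were tested in that model alone, and of the 5 tested in each model 4 were higher. Il1b, a cytokine that caspase 1 activates, had 41 to 46 counts against 0 to 1 in C3H. Il33, an alarmin, rose by 1.37 (SE 0.06, edgeR adjusted p = 2.73e-14) and Il1r1, the interleukin 1 receptor, by 1.83 (SE 0.09, edgeR adjusted p = 5.96e-13). In Pde6b rd1 Il33 fell by 1.41 (SE 0.08, edgeR adjusted p = 2.14e-13), and no other gene of the list was called there. Guanylate-binding proteins, immunity-related GTPases and interferon factors, which help to expose bacterial lipopolysaccharide to caspase 4, had 8 of 9 genes higher in Pde6b rd10. Gbp2 had 502 to 637 counts against 7 to 20 in C3H, a log2 fold change of 5.36 (SE 0.15, edgeR adjusted p = 3.60e-17), and Irgm1 rose by 3.32 (SE 0.12, edgeR adjusted p = 1.68e-15). Pde6b rd1 had Gbp3 and Gbp7 lower instead, by values of -0.78 (SE 0.25) and -1.01 (SE 0.14). In Prph rd2 Gbp5 was called higher at 1.10 (SE 0.36), with an unadjusted p of 0.00885 and an edgeR adjusted p of 0.0728.

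Of the gasdermins and membrane rupture genes, 2 were tested in Pde6b rd10. Gsdme, another gasdermin, was at 0.03 (SE 0.10) in Pde6b rd10, and Ninj1, which ruptures the membrane of dying cells, was called higher at 0.66 (SE 0.11, edgeR adjusted p = 4.41e-05).

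Death receptors and their ligands had 6 of 9 tested genes higher in Pde6b rd10. The receptors of tumour necrosis factor led, Tnfrsf1a with 648 to 785 counts against 131 to 184 in C3H and a log2 fold change of 2.15 (SE 0.09, edgeR adjusted p = 1.31e-14), and Tnfrsf1b with 2.85 (SE 0.13, edgeR adjusted p = 2.13e-13). Tnf itself had 8 to 24 counts in Pde6b rd10 and 0 in each C3H library. Tnfrsf12a, the receptor of the ligand that Tnfsf12 encodes, was called higher in Pde6b rd1 at 1.05 (SE 0.23, edgeR adjusted p = 0.000610) while Tnfsf12 was called lower at -0.92 (SE 0.11, edgeR adjusted p = 1.71e-07). Of the complex below the receptors, 1 of 6 genes tested was called in Pde6b rd10. Fadd, the adaptor between FAS and caspase 8, was at 0.17 (SE 0.12, edgeR adjusted p = 0.230) in Pde6b rd10 and Cflar, the inhibitor of caspase 8, at -0.38 (SE 0.05, edgeR adjusted p = 7.04e-07), neither past 1.5-fold. Faim2, an inhibitor of FAS-driven death, was the gene called, higher in Pde6b rd10 at 0.77 (SE 0.05, edgeR adjusted p = 1.26e-10), and it was lower in Pde6b rd1 at -1.35 (SE 0.04, edgeR adjusted p = 1.07e-17).

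Of the partners and brakes of necroptosis 17 of 20 were not called in Pde6b rd10, with a median log2 fold change of 0.01. The exceptions were Zbp1, a nucleic acid sensor that engages RIPK3, at 3.77 (SE 0.31, edgeR adjusted p = 1.81e-09), Birc3, a ubiquitin ligase of RIPK1, at 2.61 (SE 0.22, edgeR adjusted p = 1.84e-09) and Tnfaip3. Tnfaip3, which encodes the brake A20, was measured at 5028 to 6312 counts in C3H, with Prph rd2 at 3638 to 3802, Pde6b rd10 at 3354 to 4264 and Pde6b rd1 at 1632 to 2117. It was thus called lower in each model, by -0.76 (SE 0.04, edgeR adjusted p = 5.49e-08) for Prph rd2, -0.59 (SE 0.04, edgeR adjusted p = 3.15e-11) for Pde6b rd10, just past 1.5-fold, and -1.49 (SE 0.03, edgeR adjusted p = 1.22e-20) for Pde6b rd1, though these comparisons share the C3H libraries. The list of PARP, AIF and calpain genes also held Cybb, which is none of these. Cybb, Cast and Capn1 were the 3 of 10 called in Pde6b rd10, and all 3 were higher. Of the 9 tested in each model 2 were higher there, 22.2% beside 15.9% of all genes tested. Cybb, an NADPH oxidase subunit of phagocytes, had 237 to 369 counts against 1 to 5 in C3H. Parp1 was at 0.05 (SE 0.05, edgeR adjusted p = 0.394) and Aifm1, the gene of AIF, at -0.23 (SE 0.08, edgeR adjusted p = 0.0273), neither called.

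Summed levels of immune cell markers were higher in Pde6b rd10 than in C3H. The summed level of 14 microglial markers was 279 to 304 CPM in Pde6b rd10 and 108 to 112 CPM in C3H, 2.64 times the C3H mean, with 13 of 14 called higher and none at or under 3 counts throughout a group. P2ry12, a receptor of resting microglia, was the exception at -0.36 on the log2 scale (SE 0.12, edgeR adjusted p = 0.0156), under 1.5-fold and so not called, with 100 to 177 counts in Pde6b rd10 and 152 to 180 in C3H. The sum of the 14 microglial markers was 99.7 to 107 CPM in Pde6b rd1 and 97.0 to 102 CPM in Prph rd2. For 8 markers of infiltrating monocytes and macrophages the sum was 84.5 to 90.1 CPM in Pde6b rd10 and 4.50 to 5.30 CPM in C3H, a ratio of 17.6, with 8 of 8 called higher and with Ccr2, Ms4a7, Cd163 and Plac8 at or under 3 counts in every C3H library. Lymphocyte markers summed to 2.66 to 3.51 CPM in Pde6b rd10 and 0.315 to 0.569 CPM in C3H, a ratio of 6.85. Cd3e and Cd3d, which define T cells, were at or under 3 counts in every library of both, whereas Cd8a had 27 to 35 counts in Pde6b rd10 and 0 to 2 in C3H and was called higher at 4.74 (SE 0.51, edgeR adjusted p = 1.06e-07), and Cd4 had 10 to 18 against 0 to 5. Neutrophil markers did not exceed 1.24 CPM in sum, but this was 12.8 times the C3H mean when averaged over the Pde6b rd10 libraries. S100a8 had 6 to 11 counts in Pde6b rd10 and 0 to 1 in C3H, S100a9 6 to 8 against 0 and Retnlg 3 to 7 against 0 to 2. Mpo had 0 to 1 counts in Pde6b rd10 against 0, Camp 0 to 2 in both groups, and Elane was at 0 in every Pde6b rd10 library. No neutrophil marker passed the filter on low counts, so none was tested. The sum of 4 astrocyte markers was 369 to 409 CPM in Pde6b rd10 and 60.7 to 64.2 CPM in C3H, of which Gfap made up a mean of 348 and 38.0 CPM. Gfap, which reactive Mueller glia also express, and Aldh1l1 were called higher, at 3.19 and 1.30 on the log2 scale, while S100b at -0.36 and Pax2 at -0.11 were not called. The part of these cells in the values of the 10 genes was not tested. In whole retina more cells of a type and more RNA per cell cannot be told apart. Rod markers, which define the tissue, summed to less in each model than in C3H (26290 to 27250 CPM in sum), at 22090 to 23090 CPM for Pde6b rd10, 17020 to 18220 for Prph rd2 and 12920 to 12940 for Pde6b rd1, with 4, 3 and 5 of 8 markers called lower, and none was at or under 3 counts in any group.

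**Figure D5:**
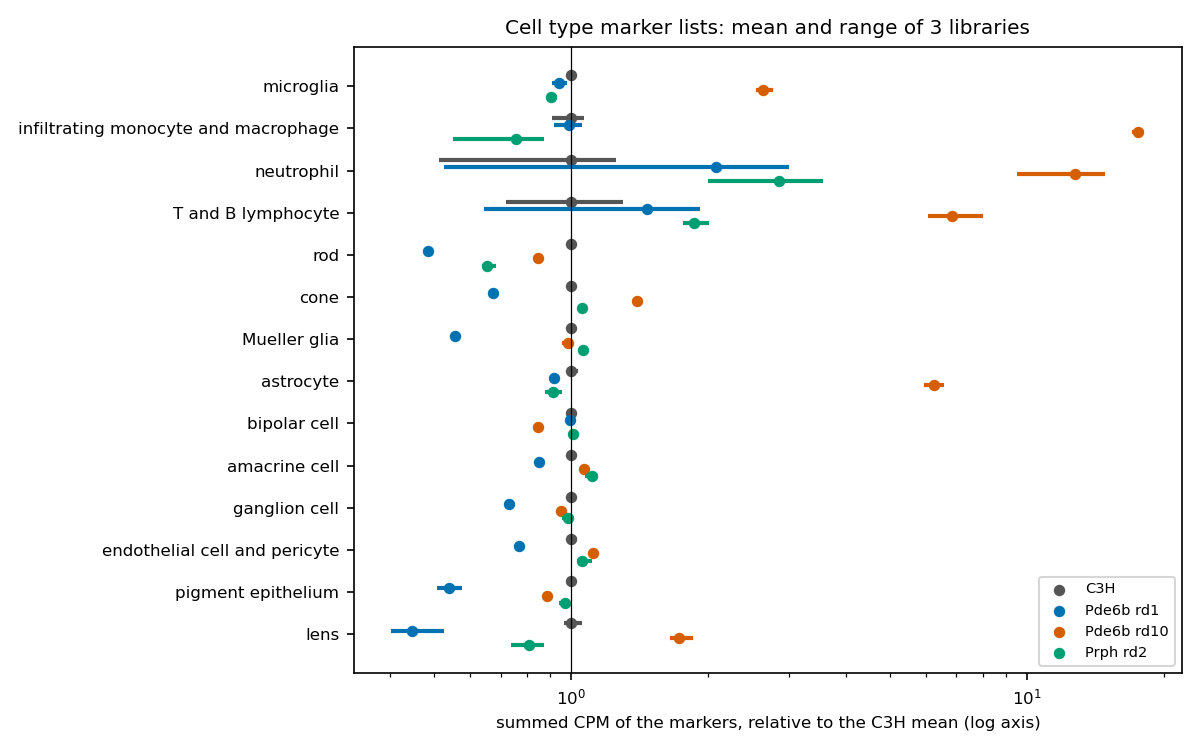
Summed CPM of 14 cell type marker lists relative to the C3H mean, on a log axis; points are means and lines the range of 3 libraries. Immune cell lists lie to the right in Pde6b rd10, as does the astrocyte list, most of whose sum is Gfap, with 17.6 times the C3H mean for monocytes and macrophages and 2.64 times for microglia.

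For each of the 10 genes the gene with the most similar profile was found among 19607 others, as the smallest root mean square difference between log2 CPM profiles over the 12 libraries after centring. This is a description over libraries in which Pde6b rd10 drives most of the variation. Pycard was nearest to C1qb, a complement gene of microglia that is also among the markers above, at 0.22, and Casp8 to Stab1, a scavenger receptor gene, at 0.11. Ripk1 was nearest to Lpcat2 (0.08), Mlkl to Srgn (0.26), Nlrp3 to Crip1 (0.22), Gsdmd to 2810032G03Rik (0.23) and Fas to Slc13a4 (0.32). Casp1 and Casp4 were nearest to 4930572G02Rik (0.30) and H2-Q2 (0.38), genes with at most 1 count outside Pde6b rd10, and Ripk3 to Gm11722 (0.35). Among the 10 genes themselves the closest pair was Casp8 and Gsdmd, at 0.27.

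The second readout of the study, circular RNAs, held none of the genes. Of 12510 circular RNAs, 0 had 1 of the 10 as host gene, in libraries with 9819 to 25009 back-splice junction reads each. Of the list genes Pgam5, a mitochondrial phosphatase placed downstream of RIPK3, hosted the most abundant, with 113 junction reads over the 12 libraries, of which Prph rd2 had 33, C3H 30, Pde6b rd10 26 and Pde6b rd1 24.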

How the data were processed

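Retinal total RNA of 12 mouse libraries (4 groups of 3) was depleted of ribosomal RNA, made into directional libraries and sequenced on an Illumina HiSeq. The authors aligned reads to GRCm38 (HISAT2 in the submitters' processing notes) and counted reads per gene with HTSeq 0.11.2; the strand setting is not given in the sources used here. The deposited gene table holds raw counts per gene and FPKM, which the authors scaled by gene length and library size. The deposited circular RNA table holds counts of junction reads (TopHat2 2.1.1 in the notes). The study describes the replicates as biological. Whether each library came from a mouse of its own is not given in the sources used here. Each Pde6b rd10 library held both Xist (13428 to 18861 counts) and Ddx3y (1056 to 1696 counts). Each Prph rd2 library also held both, with 37187 to 47452 counts of Xist and 757 to 907 of Ddx3y. Whether libraries of these groups pooled mice of both sexes was not tested. The p-values measure the spread between these libraries, which need not be the spread between mice.

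From the counts, each model was compared with C3H in a fit of 6 libraries with edgeR 4.0.16 (R 4.3.3; TMM library sizes, filterByExpr, quasi-likelihood test), and Pde6b rd10 with Pde6b rd1 in a fit of all 12. Benjamini-Hochberg adjustment ran over all genes tested. Genes filtered out of a comparison have their values from the fit of 12, or a ratio of summed CPM with an exact 95% interval. Intervals and the floor of 3 counts cover counting error only. Library totals began at 17049495 counts, and on TMM library sizes that floor was at most 0.169 CPM. Scripts were tested on simulated data. DESeq2 1.42.0 and limma 3.58.1 on log2(FPKM + pseudocount) served as alternatives, with other filters and scalings, single libraries left out and a replicate block. Gene positions follow GRCm38 annotation. Read quality class came from the study's sequencing summary.

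The 10 genes, pathway lists, marker lists and motifs were chosen with earlier results of these data known. All 10 genes are described; of each list at most 4 called genes per comparison and direction, those with the smallest p, are named, with values of some uncalled genes (Nek7, Gsdme, Fadd, Cflar, Parp1, Aifm1) and the low ligands Fasl and Tnf, chosen after their values were seen. Marker lists are given by counts and summed CPM. For each gene the nearest profile was sought with a prior count of 2 reads. Results for some list genes are not reported here.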

Additional observations from a re-analysis of the deposited data

Results flagged for a closer look

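In 4 genes of the pathway lists Pde6b rd1 and Pde6b rd10 were called in opposite directions against C3H, and the direct difference between both models was also called. Il33 was 2.81 above its Pde6b rd1 level in Pde6b rd10 on the log2 scale (SE 0.08), Faim2 2.14 higher (SE 0.07), Gbp7 2.76 higher (SE 0.11) and Gbp3 3.53 higher (SE 0.17). For Gbp3 and Gbp7, members of a family of similar genes, reads could be split between copies. Both models share the C3H libraries and differ from each other in age, strain and sex as well as mutation. None of the 10 genes met this criterion, and groups of 3 libraries are too small for the test of a single deviating library.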

How the results depend on the processing

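Over the alternatives run, the values of the 10 genes kept direction and call in 147 of 151 cases for Pde6b rd10 against C3H, 126 of 133 for Pde6b rd10 against Pde6b rd1, 55 of 61 for Pde6b rd1 and 60 of 63 for Prph rd2. The number of genes called higher in Pde6b rd10 was 9 under each alternative but 2: the stricter filter left 7 to test, all called, and limma on log2(FPKM + 1) called 5, a scale that by construction shrinks changes of genes under 1 FPKM. On that scale Casp4, Nlrp3, Ripk1 and Mlkl had adjusted p from 0.00039 to 0.00315 but lay under 1.5-fold. Against Pde6b rd1 it called 4 in place of 8, the stricter filter left 7 to test with 6 called, and leaving out single libraries gave 8 to 9. The Gsdmd call in Pde6b rd1 was the least firm. The count of 1 became 0 with DESeq2, with limma on log2(FPKM + 1) and at an adjusted p under 0.05, and was 0 to 1 with single libraries left out. Its change against the day 13 C3H library alone was smaller, as given above. The stricter filter left 2 genes to test there and removed Gsdmd, so that setting did not test its call. In Prph rd2 the small values of Ripk1 turned to -0.0545 against the day 29 C3H library alone and ran from -0.0341 (without C3H replicate 2) to 0.0964 with single libraries left out, and that of Nlrp3 turned to -0.0867 against the day 29 library alone; none was called. Fas in Pde6b rd10 was at 6.22 against the day 23 C3H library alone.

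The same replicate numbers occur in each group, and deviations of same-numbered libraries were weakly correlated at most, from -0.07 to 0.14. For Pde6b rd1 against C3H these correlations were 0.068, 0.057 and 0.126, and those of different numbers ran from -0.076 to 0.023. In C3H the replicate number goes with the age, so these values cannot decide whether the numbers pair the libraries. With a replicate block the genes called higher were 1 in Pde6b rd1, 9 in Pde6b rd10, 0 in Prph rd2 and 8 in Pde6b rd10 against Pde6b rd1, as without it. A term for read quality was not fitted for Pde6b rd1, where C3H replicate 3 is the 1 library of the higher class among the 6. Without that library the Gsdmd call was lost. Over all genes, limma on log2(FPKM + 1) called 764 higher and 333 lower in Pde6b rd1 (1645 and 1104 with edgeR; 1734 and 739 with a pseudocount of 0.1), 1421 and 614 in Pde6b rd10 (2968 and 1511), 65 and 101 in Prph rd2 (498 and 352) and 1768 and 1161 between Pde6b rd10 and Pde6b rd1 (3451 and 2193). For Prph rd2 an adjusted p under 0.05 left 197 and 187, no filter gave 733 and 567, and leaving out Prph rd2 replicate 2 gave 641 and 794. At these depths, changes of Ripk3, and of Fas, Casp1 and Casp4 outside Pde6b rd10, could be bounded only loosely.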
